A study of Mus musculus with 3 samples.

Results

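The genes described here are the protein-coding translation factors of the mouse whose symbols start with Eif or Eef and a digit, in 3 libraries of splenic B cell lymphoma. The name rule matched 70 of the 18730 protein-coding genes in the count tables. Eif2s3x, Eif2s3y and Eif2ak3 were left out by the rule, so 67 members remained. The rule reads symbols and no expression values, though it was set with earlier results of these data known. The cells came from pBIC2 mice on the C57BL/6 background, labelled as a model of ABC-DLBCL, the diffuse large B cell lymphoma that resembles activated B cells. All 3 libraries share 1 genotype: Cre from the Cγ1 locus (Cg1Cre/+), floxed alleles of p53 (p53F/F) and of Blimp1 (Blimp1F/F), a Cre-activated allele of constitutively active IKK2 (IKK2castopF/stopF), and a human BCL2 transgene under the Eµ enhancer (Eu-hBCL2tg/+). Cγ1-Cre acts mainly in B cells of the germinal centre, and the Eµ enhancer drives the transgene in lymphoid cells from early stages on. B220+GFP+ cells were sorted from the spleens, and RNA with polyA tails was read as single 50 nt reads. The libraries, called tumours 1, 2 and 3, form 1 group. Germinal centre B cells of immunised mice are named as the study's control and were not analysed here. The values are therefore levels and their spread between tumours (SD, n = 3), with no test against normal B cells. The labels do not say that the libraries came from separate mice, each tumour has 1 library, and the spread may be technical in part.

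The 3 libraries held 15576975, 16477997 and 17014022 gene counts, and 3 counts in a library correspond to 0.199, 0.184 and 0.169 CPM, the counts scaled to a common library size. All 10 B cell markers looked at (among them Cd79a, Ms4a1 and Pax5) reached 1 CPM in each tumour, with medians of 853, 1338 and 1153 CPM and sums of 20731, 19292 and 14568 CPM, so the median was highest in tumour 2 and the sum in tumour 1. Reads of marker genes of other cell types were unequal between the libraries. Whether they came from other cells or from the lymphoma cells was not tested. The summed level of 10 T cell markers was 191, 294 and 1278 CPM, with 4, 10 and 10 of them at 1 CPM or more, and that of 10 macrophage markers 36.3, 455 and 188 CPM. Neutrophil markers summed to 0.199, 17.0 and 42.9 CPM, NK cell markers to 1.86, 2.45 and 48.3 CPM, erythroid markers to 8.88, 20.1 and 10.7 CPM and stromal and endothelial markers to 10.1, 2.70 and 4.28 CPM. Ncr1 and Dcn had no count. Proliferation genes were lowest in tumour 2 (summed 2759, 1505 and 3171 CPM). Translation factors are made by every cell type, and the part of other cells in the values below was not tested. In such bulk samples fewer cells of a type and less RNA per cell cannot be told apart.

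Protein synthesis starts when the small ribosomal subunit, carrying initiator tRNA brought by eIF2, is loaded onto mRNA and scans for a start codon. The cap-binding protein eIF4E, the scaffold eIF4G and the helicase eIF4A recruit the mRNA, eIF3 holds the complex on the ribosome, and eIF5B joins the large subunit. During elongation, eEF1A delivers aminoacyl-tRNA and eEF2 moves the ribosome along. Growth signals through mTOR act on this machinery by phosphorylating the eIF4E-binding proteins, and stress acts by phosphorylating eIF2, whose exchange factor is eIF2B. In B cell lymphoma this machinery is known for its link to MYC and to mTOR signalling.

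The members were abundant and varied little. Of 67 members, 57 reached 10 CPM in each of the 3 tumours, which is 85.1% against 40.6% of all protein-coding genes, and 62 had a mean level of 1 CPM or above, which is 92.5% against 58.8%. The median member was at 117 CPM. On the log2 scale the median member was at 6.86, beside 5.14 over protein-coding genes with a mean of at least 1 CPM. Together the members took 2.32%, 2.17% and 1.94% of all counts in tumours 1, 2 and 3, with exact 95% binomial intervals of 2.32 to 2.33, 2.16 to 2.18 and 1.93 to 1.95. These intervals cover counting error only. Eef2 alone held 30.8%, 26.1% and 23.6% of the members' counts. The eIF3 genes, the largest role by number, summed to 4545, 4899 and 3772 CPM, and the eIF4A, 4B, 4E, 4G and 4H genes to 4344, 4223 and 3766 CPM. All 3 of these were lowest in tumour 3, and the eIF3 sum was highest in tumour 2, not in tumour 1.

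**Figure D1:**
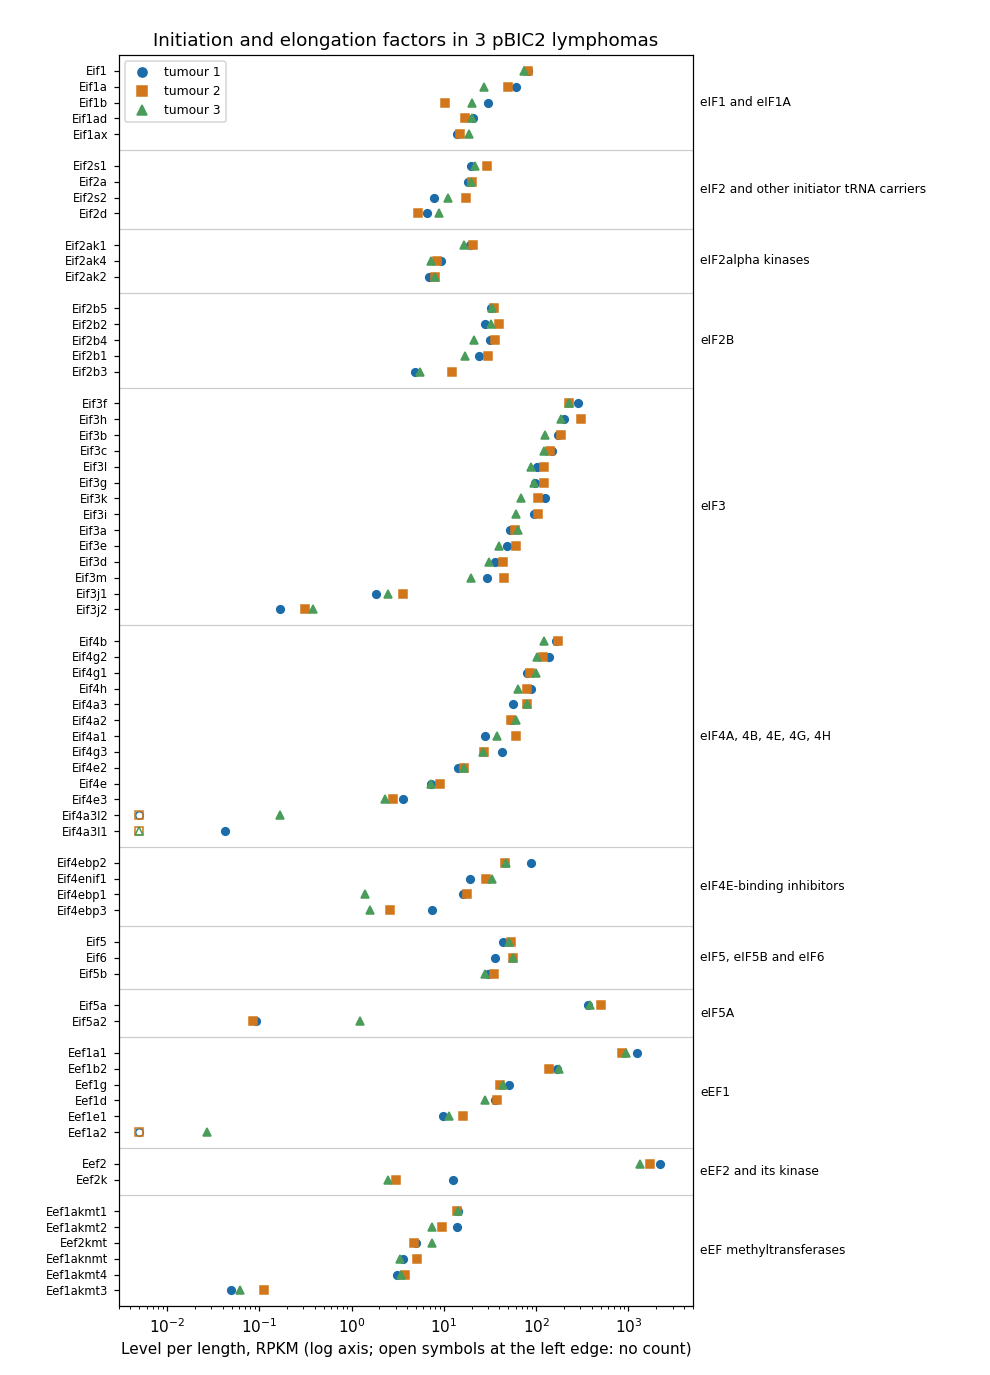
Level per length (RPKM, log axis) of all 67 members in tumours 1, 2 and 3, grouped by role; open symbols at the left edge mark a library with no count. Eef2 and Eef1a1 lie furthest right, most members lie between 5 and 250 RPKM with their 3 symbols close together, and Eif5a2, Eif4ebp1, Eif4ebp3 and Eef2k show wide gaps.

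Levels of different genes are compared per length, as RPKM (CPM per 1000 bases of the gene's exons in GENCODE M21). Eef2, the translocase of elongation, was the highest member, at 2222, 1721 and 1322 RPKM in tumours 1, 2 and 3 (1755 ± 451, SD, n = 3). It ranked 10 among protein-coding genes, with 111458, 93338 and 77993 counts. Its level was highest in tumour 1 and lowest in tumour 3. Eef1a1, the carrier of aminoacyl-tRNA, was next with 1225, 846 and 942 RPKM (1004 ± 197, SD, n = 3). The ratio of Eef2 to Eef1a1 was 1.81, 2.03 and 1.40. This order rests on how reads of near copies were counted: 60.6% of the 50-base windows of the Eef1a1 transcript occur letter for letter in transcripts of other genes, 12 of which hold at least 5% of them each, against 7.86% for Eef2. Per window not shared with another gene, a setting added once the values were known, the mean ratio was 0.573 and Eef1a1 was the higher. How the authors counted reads that map to several places is not given in the sources used here.

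The next members by RPKM were Eif5a at 414 ± 74.3, Eif3f at 246 ± 33.4, Eif3h at 232 ± 65.6, Eif3b at 161 ± 31.0, Eef1b2 at 160.2 ± 19.9, Eif4b at 153 ± 28.9, Eif3c at 138 ± 13.9 and Eif4g2 at 118 ± 17.7 RPKM (SD, n = 3 each). Of the neighbours in this order, Eif3f and Eif3h, Eif3b and Eef1b2, and Eef1b2 and Eif4b differ by less than either one's SD between tumours. Eif5a and Eif3f, Eif3h and Eif3b, and Eif3c and Eif4g2 differ by more than either SD, and the gap between Eif4b and Eif3c lies between their SDs. Of these 10 members, 6 stay among the first 10 when the length of 1 transcript replaces that of all exons, and 5 do so per unshared window.

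The paralog of Eef1a1, Eef1a2, which takes its place in mature neurons and muscle, had 0, 0 and 1 counts in tumours 1, 2 and 3. No library reached the 3 counts that set the floor here, so no fold is given. The reads can tell the pair apart: their coding sequences are 80.2% identical, no 50-base window of Eef1a2 occurs in Eef1a1, and the longest identical run is 23 bases. The first 90 coding bases of each (GRCm38, chromosomes 9 and 2, GENCODE transcripts, 5′ to 3′) are shown with the bases that differ in capitals, because they show how evenly the differences are spread over a read:
Eef1a1: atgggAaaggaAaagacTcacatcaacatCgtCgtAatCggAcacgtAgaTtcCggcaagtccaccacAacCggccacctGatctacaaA
Eef1a2: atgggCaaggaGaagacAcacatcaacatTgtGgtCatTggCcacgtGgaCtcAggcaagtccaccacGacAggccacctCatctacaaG
Within these 90 bases the pair differs at 15.

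The exchange factor of eEF1A, eEF1B, is built from the products of Eef1b2, Eef1d and Eef1g, at 160.2 ± 19.9, 33.6 ± 5.22 and 44.9 ± 5.46 RPKM. Eef1b2 was the highest of them in all 3 tumours. Of the Eef1g transcript, 64.3% of windows are shared with other genes, so its level is uncertain. Eef1e1, which encodes a protein of the aminoacyl-tRNA synthetase complex, was at 31.6, 51.9 and 36.8 CPM.

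Methyltransferases of eEF1A and eEF2 were low, with a median of 4.89 RPKM. Eef1akmt1 was the most even member of all, at 13.5, 13.0 and 13.5 CPM (SD of log2 CPM 0.03). Eef1akmt3, a lysine methyltransferase, had 2, 5 and 3 counts, the highest with an exact 95% Poisson interval of 1.62 to 11.7 counts. The summed RPKM of 6 elongation factors was 1.28, 0.857 and 0.976 times that of 45 initiation factors (1.04 ± 0.217, SD, n = 3). The 45 include Eif5a, the highest of them by RPKM (362, 499 and 380), though its product helps ribosomes through stretches that stall them. The ratio with Eif5a among the elongation factors was not computed. With this split the ratio was above 1 in tumour 1 and below it in tumours 2 and 3. The side of 1 depends on the length used. The mean was 0.727 by the length of 1 transcript and 0.794 by CPM, but 1.06 per unshared window. By RPKM, Eef2 by itself equalled 0.767, 0.530 and 0.514 times the initiation sum.

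Initiation factors of the eIF1 and eIF1A families help the scanning ribosome find the start codon. Eif1 held nearly the same level in all 3 tumours, at 169, 169 and 155 CPM. Its paralog Eif1b varied, at 33.7, 11.5 and 22.5 CPM, highest in tumour 1 and lowest in tumour 2, which is 37.2%, 12.7% and 27.1% of Eif1 per length. Eif1a was at 249.8, 204 and 114 CPM and Eif1ax, the X-linked copy, at 72.4, 78.6 and 97.7 CPM. Eif1ax was thus 22.95%, 30.5% and 67.7% of Eif1a per length, lowest in tumour 1 and highest in tumour 3. The mean of 40.4% became 21.3% by the length of 1 transcript and 19.9% per unshared window. Eif1ad, a related protein, was at 58.2, 47.4 and 55.7 CPM.

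For eIF2, the subunits measured were Eif2s1 (alpha, the target of stress kinases) and Eif2s2 (beta). Eif2s1 was at 97.4, 145 and 108 CPM and Eif2s2 at 53.3, 116 and 75.2 CPM. Both were highest in tumour 2 and lowest in tumour 1. Eif2a and Eif2d, which can deliver initiator tRNA without eIF2, were at 118 ± 6.48 and 50.9 ± 13.5 CPM. The kinases of eIF2 alpha differed little between tumours. Eif2ak1 (the haem-regulated kinase) was at 109.9, 116 and 93.3 CPM, Eif2ak2 (PKR, which senses double-stranded RNA) at 35.5, 40.6 and 40.5 CPM, and Eif2ak4 (GCN2, which senses uncharged tRNA) at 69.9, 62.1 and 53.7 CPM. Per length, Eif2ak2 and Eif2ak4 were at 41.0 ± 6.44% and 44.3 ± 3.83% of Eif2ak1.

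The exchange factor eIF2B has 5 subunits, Eif2b1 to Eif2b5, and their order depends on the length used. By exon length, Eif2b5, the catalytic subunit, was at 33.6 ± 1.29 RPKM with hardly any spread, while Eif2b3 was the lowest at 4.83, 12.3 and 5.51 RPKM. By the length of 1 transcript the gap closed: Eif2b3 had a mean of 31.6 CPM per 1000 bases, beside 30.4 for Eif2b1 and 34.2 for Eif2b5. In CPM, Eif2b3 was at 31.5, 80.1 and 35.9, a ratio of 2.54 between tumour 2 and tumour 1. Eif2b1, Eif2b2 and Eif2b4 were at 23.7 ± 6.61, 33.3 ± 5.81 and 29.4 ± 7.24 RPKM. All 5 subunits were highest in tumour 2, and their sum was 312, 415 and 284 CPM.

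The eIF3 complex, the largest initiation factor, was represented by 14 genes. Without Eif3j1 and Eif3j2 its subunits had medians of 99.2, 112 and 78.4 RPKM in tumours 1, 2 and 3, and the highest exceeded the lowest 9.61, 6.99 and 11.4 times. By exon length Eif3f was the highest in tumours 1 and 3 (284 and 228 RPKM), and Eif3h in tumour 2 (307.5 RPKM). The order and the width of this range rest on that length: by the length of 1 transcript the means ran from 63.4 CPM per 1000 bases for Eif3m to 346.9 for Eif3k, with Eif3f at 282.7. Per 1000 unshared windows Eif3h (407.5 CPM) and Eif3k (370.3 CPM) were above Eif3f (288.4 CPM). Eif3m was at 29.6, 44.7 and 19.9 RPKM, the lowest in tumours 1 and 3, with 39.95% of its windows shared with other genes. Eif3a, the largest scaffold subunit, was at 52.7, 59.6 and 63.5 RPKM and was the only one of these 12 that was highest in tumour 3. Eif3j, which joins the complex loosely, is encoded in the mouse by a pair of near-identical genes. Eif3j1 had 161, 346 and 257 counts and Eif3j2 had 6, 12 and 16. Their coding sequences are 99.2% identical over 789 aligned bases, and 54.8% of the windows of Eif3j1 and 91.8% of those of Eif3j2 occur in other genes, so both values are uncertain.

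Within the cap-binding group, Eif4e was low per length, at 7.18, 8.96 and 7.16 RPKM. The scaffold Eif4g1 was at 78.8, 85.3 and 99.9 RPKM, which is 11.5 ± 2.26 times Eif4e. Eif4g2, whose product initiates without eIF4E, was at 173%, 137% and 101% of Eif4g1 per length, and Eif4g3 at 53.4%, 31.6% and 26.4%. Both ratios were highest in tumour 1 and lowest in tumour 3. Of the other cap-binding proteins, Eif4e2, which can repress translation, was at 205 ± 23.5% of Eif4e, and Eif4e3 at 37.8 ± 10.5%. By the length of 1 transcript, the mean for Eif4e2 was 445% and that for Eif4g3 over Eif4g1 59.9%, above 1.5 times the values by exon length, with the direction kept. The transcript used for Eif4g3 has 5289 bases, 5286 of them coding, against 5638 and 4800 for Eif4g1, which raises Eif4g3 by that setting. Eif4b and Eif4h, which stimulate the helicase, were at 153 ± 28.9 and 77.1 ± 12.3 RPKM.

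The helicase genes could not be ordered. Eif4a1 was at 122, 259 and 162 CPM and Eif4a2 at 287, 284 and 322 CPM. Per length Eif4a1 was at 52.5%, 112.5% and 62.1% of Eif4a2, highest in tumour 2. Of the windows of Eif4a1, 65.3% are shared, nearly all with the pseudogene Eif4a-ps4, against 26.2% for Eif4a2. Eif4a3, the helicase of the exon junction complex, was at 105%, 148% and 132% of Eif4a2 by exon length, but at a mean of 41.5% by the length of 1 transcript and 40.2% per unshared window. The transcript used for Eif4a2 has 1227 bases, 1224 of them coding, against 1509 and 1233 for Eif4a3 and 1774 and 1218 for Eif4a1. With almost no bases outside its coding sequence, Eif4a2 is raised beside the others by these settings. Eif4a3l1 and Eif4a3l2, relatives of Eif4a3, were near 0, with counts of 1, 0 and 0 and of 0, 0 and 4.

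The inhibitors of eIF4E held the member of largest range on the log2 scale (prior count of 2). Eif4ebp1, the 4E-BP1 protein that mTOR inactivates, had 535, 639 and 54 counts, or 35.5, 39.2 and 3.04 CPM. Tumours 1 and 2 were close together and tumour 3 was 12.9 times below tumour 2 (range 3.63 on the log2 scale). T cell markers were highest in tumour 3, and their part in this was not tested. Eif4ebp2, the highest of the 3 binding proteins per length in each tumour, was at 508.5, 267 and 270.4 CPM, with tumour 1 above the other two. Eif4ebp1 was thus 18.4%, 38.6% and 2.96% of Eif4ebp2 per length. Eif4ebp3 had 83, 32 and 21 counts, and 65.5% of its windows are shared with 1 overlapping locus (AC115631.1). Summed per length, the 3 inhibitors were at 15.5, 7.44 and 6.95 times Eif4e, and Eif4ebp2 made up most of each sum. Eif4enif1, which carries eIF4E into the nucleus, was at 123, 182 and 213 CPM.

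Of the late factors of initiation, Eif5 and Eif5b differed little between tumours. Eif5, which triggers GTP hydrolysis by eIF2, was at 301, 364 and 345 CPM, Eif5b at 292, 341 and 274 CPM and Eif6, which keeps ribosomal subunits apart, at 96.1, 153 and 151 CPM. None of them differed by 1 or more (log2) between tumours. The SD of log2 CPM of Eif6 was 0.38, beside a median of 0.35 over protein-coding genes with a mean of at least 100 CPM.

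Eif5a, which helps ribosomes through stretches that stall them and carries the amino acid hypusine, was the highest member with an Eif symbol per length, at 861, 1186 and 903 CPM. Its paralog Eif5a2 had 7, 7 and 111 counts, or 0.464, 0.429 and 6.26 CPM. The exact 95% Poisson intervals were 0.187 to 0.956 CPM in tumour 1, 0.173 to 0.884 CPM in tumour 2 and 5.15 to 7.53 CPM in tumour 3, so tumour 3 lies outside the counting error of the others. Even there Eif5a2 was only 0.327% of Eif5a per length, beside 0.0255% and 0.0171%. No window of Eif5a2 is shared with any other gene. Its coding sequence is 72.7% identical to that of Eif5a, with no identical run over 14 bases. The first 90 coding bases (GRCm38, chromosomes 11 and 3, GENCODE transcripts, 5′ to 3′) show this, with differing bases in capitals, 25 in each:
Eif5a: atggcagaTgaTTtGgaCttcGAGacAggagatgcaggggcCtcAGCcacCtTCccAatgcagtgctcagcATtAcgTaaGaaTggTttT
Eif5a2: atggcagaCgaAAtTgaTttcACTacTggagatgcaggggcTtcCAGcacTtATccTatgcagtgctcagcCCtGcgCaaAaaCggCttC
Tumour 3 was also the highest for T cell markers (1278 CPM against 191 and 294 CPM), and their part in the Eif5a2 counts was not tested.

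The spread between tumours was small for genes of this level. The median SD of log2 CPM was 0.29 over the 62 members whose mean reached 1 CPM and 0.44 over all 12445 such genes. Since spread falls with level, the same was read at higher levels: it was 0.24 over 36 members and 0.35 over 2454 protein-coding genes with a mean of at least 100 CPM. A difference of 1 or more (log2) between the highest and the lowest tumour was found for 10 of 62 members (16.1%), where the share of all genes is 41.3%. Among protein-coding genes at 10 CPM or more in every tumour it was 7 of 57 members (12.3%) against 23%, and among those whose mean reached 10 CPM it was 8 of 58 members (13.8%) against 29.3%. These are descriptions of 3 libraries. Leaving out 1 tumour gave 4 members without tumour 1, 5 without tumour 2 and 6 without tumour 3. A gene's range cannot grow when a tumour is left out, so such counts fall or stay by construction. The shares of all genes in these settings are not given.

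**Figure D2:**
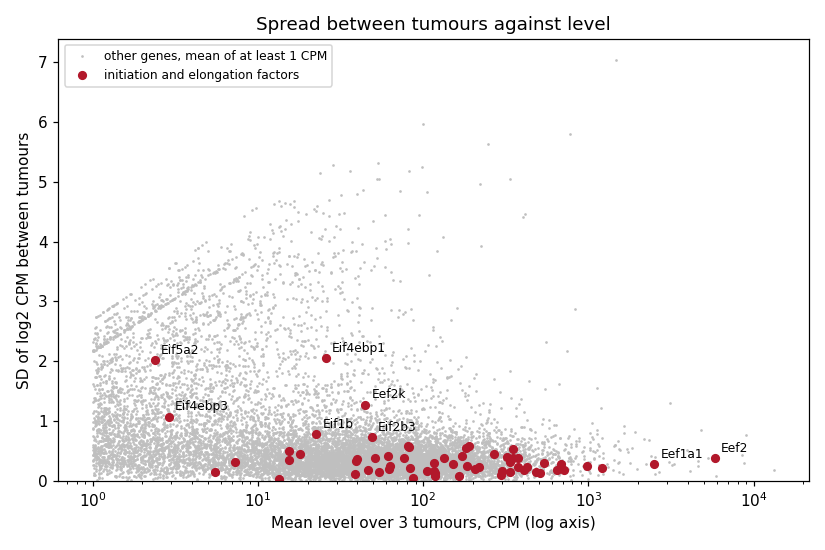
SD of log2 CPM between the 3 tumours against the mean level (CPM, log axis) for genes with a mean of at least 1 CPM; members are red and other genes grey. Most members lie low in the cloud, with a median SD of 0.29, and Eif4ebp1, Eif5a2, Eef2k and Eif4ebp3 stand above 1.

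The 10 members that differed by 1 or more were Eif4ebp1, Eif5a2, Eef2k, Eif4ebp3, Eif1b, Eif2b3, Eif3m, Eif1a, Eif2s2 and Eif4a1. For Eif4ebp1, Eif5a2 and Eef2k, 1 tumour lay at least 2 (log2) from both others, which differed by less than 1. That is 4.84% of 62 members with at least 5 CPM in any tumour, and the share of all such protein-coding genes is 5.93%, so the members' share was near that of all genes. Eif5a2 passed both level filters, a mean of 1 CPM and 5 CPM in any tumour, through tumour 3 alone. That is the tumour in which it was called high, and its mean without tumour 3 was 0.447 CPM. Eef2k encodes the kinase that switches eEF2 off. It was at 93.6, 22.6 and 18.3 CPM, 5.11 times higher in tumour 1 than in tumour 3, and its target Eef2 was also highest in tumour 1. Eif4ebp3 was at 5.50, 1.96 and 1.18 CPM. Eif1b was 2.93 times higher in tumour 1 than in tumour 2, and Eif1a 2.19 times higher in tumour 1 than in tumour 3. Eif3m (76.7, 116 and 51.5 CPM), Eif2s2 and Eif4a1 were highest in tumour 2, by factors of 2.25, 2.18 and 2.12 over the lowest tumour.

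**Figure D3:**
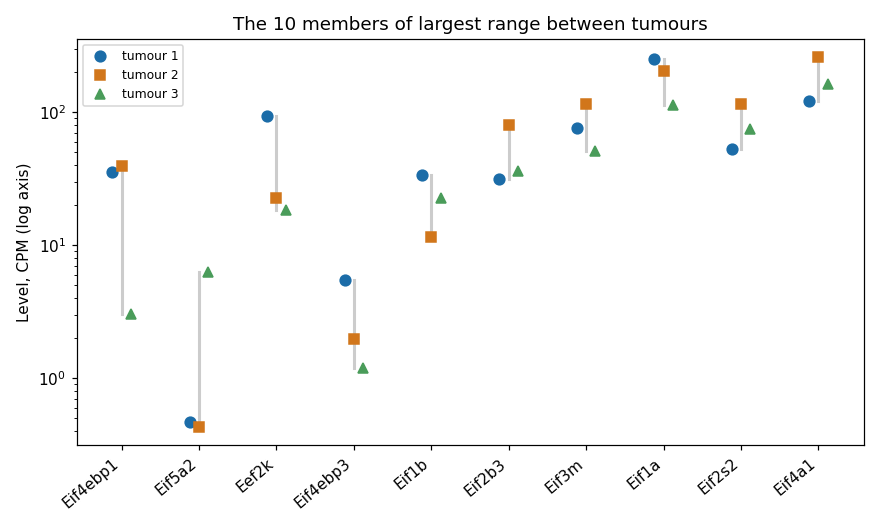
Level (CPM, log axis) in each tumour of the 10 members whose highest and lowest tumour differ by 1 or more on the log2 scale; grey bars join the lowest and highest. Eif4ebp1 is low in tumour 3 alone, Eif5a2 is high in tumour 3 alone, and Eef2k is high in tumour 1 alone.

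The order of the tumours was also read, whatever the size of the difference. Each gene has a highest and a lowest tumour by construction, also where values hardly differ. Eif1, for example, was called highest in tumour 1 at 169.3 CPM, beside 169.0 CPM in tumour 2. Of 62 members, 32 (51.6%) were highest in tumour 2, where 31.1% of all genes with a mean of at least 1 CPM were, and 30 (48.4%) were lowest in tumour 3, where 33% of genes were. The numbers highest in tumours 1 and 3 were 19 and 11, against shares of 33.6% and 35.3% of genes. Those lowest in tumours 1 and 2 were 20 and 12, against 38.1% and 28.9% of genes. Protein-coding genes whose mean reached 10 CPM gave the same picture: of 58 members, 17, 31 and 10 were highest in tumours 1, 2 and 3 (35.6%, 30.6% and 33.8% of genes), and 19, 11 and 28 were lowest (34.6%, 30.1% and 35.3% of genes). The median member lay 0.11 (log2) above its own mean in tumour 2 and 0.11 below it in tumour 3 (all genes, 0.01 and 0.02 above). Protein-coding genes with a mean of 100 CPM or above, nearer to the members in level, deviated by 0.02 in tumour 2 and -0.05 in tumour 3. With library totals in place of TMM the numbers highest in tumours 1, 2 and 3 were 17, 28 and 17. By the same setting 26 were lowest in tumour 3. The shares of all genes under library totals are not given, and those above, from TMM, do not apply to these numbers. Proliferation genes were lowest in tumour 2. Macrophage markers were highest there in 9 of 10 cases (summed 36.3, 455 and 188 CPM) and erythroid markers in 5 of 6, while B cell markers were highest there by their median (1338 CPM) but in tumour 1 by their sum. The part of these differences in the members' shifts was not tested.

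Some of these shifts followed the chromosome, and others did not. The 6 members on chromosome 15 are Eif3d, Eif3e, Eif3h, Eif3l, Eef1d and Eif4b, and each of them was highest in tumour 2 and lowest in tumour 3. Of all protein-coding genes of chromosome 15 with a mean of at least 10 CPM, 40.5% showed this order, beside 15.9% across the genome (17 of 58 members, 29.3%), so the order was common on that chromosome and not particular to the members. The median gene of chromosome 15, members left out, deviated from its own mean by 0.09, 0.19 and -0.26 (log2) in tumours 1, 2 and 3, and the median of the 6 members by -0.02, 0.25 and -0.27. All 6 kept this order with DESeq2 size factors and with library totals. On chromosome 18 the median gene was 0.61 above its mean in tumour 1 and 0.46 below it in tumour 3. Eif1a deviated there by 0.47 and -0.65 and Eif4ebp3 by 1.18 and -0.93. Eef2 lies on chromosome 10, whose genes deviated by 0.30, 0.20 and -0.51 in the median, and its own deviations were 0.37, 0.00 and -0.38. Eif4ebp2, on the same chromosome, deviated by 0.61, -0.32 and -0.30. On chromosome 12 the median gene deviated by 0.04 and -0.12 in tumours 1 and 2. Its 3 members, Eif2b2, Eif2s1 and Eif5, each went the other way in both, with medians of -0.24 and 0.26.

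Across 62 members, the deviation of a member and that of the median gene on its chromosome correlated with Pearson's r of 0.571 in tumour 1, 0.273 in tumour 2 and 0.330 in tumour 3. Points on 1 chromosome share their x value and all share the libraries, so r is given as a description. Without the members of chromosome 18, r was 0.492, 0.267 and 0.269. The 3 members with 1 tumour far apart lay far from their chromosomes' medians: in tumour 3 Eif4ebp1 deviated by -2.37, where the median gene of chromosome 8 deviated by 0.14. Without Eif4ebp1, Eif5a2 and Eef2k, left out after their values were seen, r was 0.711, 0.413 and 0.653. Whether gains or losses of chromosomes took part was not tested.

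**Figure D4:**
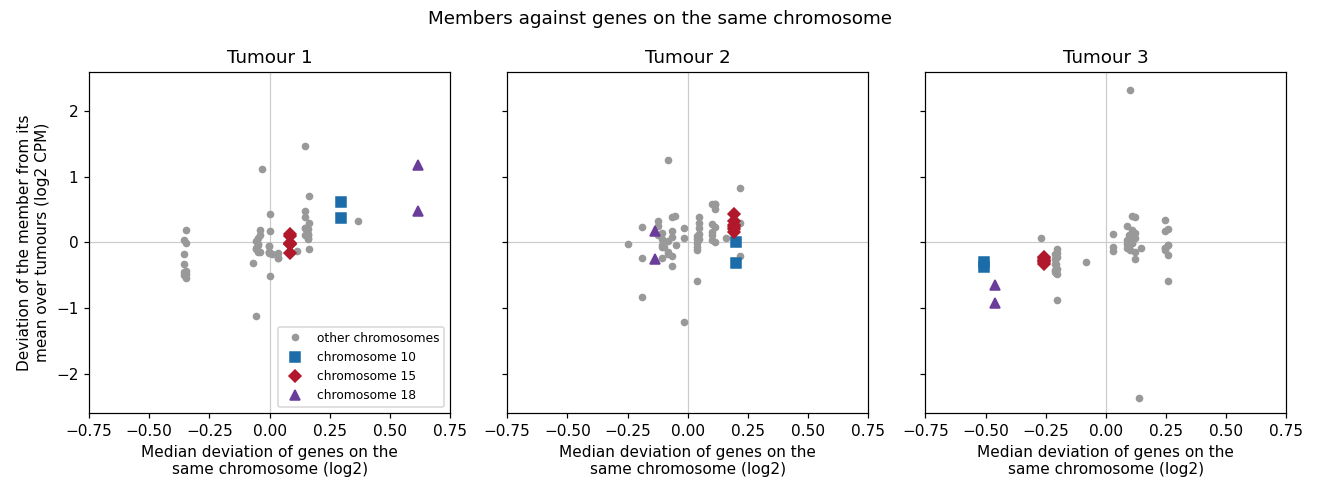
Deviation of each of 62 members from its mean over tumours (log2 CPM) against the median deviation of other genes on its chromosome, in tumours 1, 2 and 3, with chromosomes 10, 15 and 18 marked. In tumour 3 the 6 members of chromosome 15 form a tight group near -0.27, and Eif4ebp1 (-2.37) and Eif5a2 lie far from the rest.

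Promoters were read for what the members share in sequence. RefSeq promoters (GRCm38.p6, 250 bases before to 50 after each annotated start) were matched for 51 members. The letters CACGTG, the E-box bound by MYC, MAX and related factors, were found in at least 1 promoter of 14 of 51 members (27.5%), against 8.09% of 27025 genes with a promoter and 13.0% of 6257 genes at 10 CPM or more in each tumour, where 12 of 47 members (25.5%) held it. The motif reads the same on both strands. Members with it had a median of 50.2 RPKM and those without it 29.4 RPKM, with medians of the SD of log2 CPM of 0.29 and 0.27. A match is a description of the letters and shows no binding. The windows of 30 bases below hold the first match of 4 members whose levels were described above (motif in capitals, 5′ to 3′ on the gene's strand, which is plus in each case), at positions -43, -31, -54 and -142 from the annotated start:
Eef2 (chr10:81176576-81176605): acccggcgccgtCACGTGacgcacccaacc
Eef2k (chr7:120842788-120842817): cccggggacggcCACGTGagcccgggcgtg
Eif4g1 (chr16:20672661-20672690): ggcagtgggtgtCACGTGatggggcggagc
Eif5a2 (chr3:28781123-28781152): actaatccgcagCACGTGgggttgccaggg
Both the kinase Eef2k, which was high in 1 tumour, and the evenly high Eif4g1 are among them.

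Many mRNAs of translation factors are known to begin with a C followed by pyrimidines, the 5′ terminal oligopyrimidine (TOP) sequence through which mTOR controls their translation. A C at one of the positions -2 to 3 around the annotated start, followed by at least 4 pyrimidines (C or T, gene strand only), was found in 9 of 51 members (17.6%), against 10.6% of all genes with a promoter. At 10 CPM or more in each tumour it was 8 of 47 members (17.0%) against 12.1% of genes. The longest run, of 13 bases, was that of Eif3f (chr7:108934405-108934434, plus strand, run in capitals):
Eif3f: tctaggctCTCTCTCTTTCTCggcaagatg
The 9 members had a median of 88.0 RPKM against 28.3 RPKM in the other 42, with a wide range. Eif3f, Eif3b, Eif3l, Eif4g1 and Eef1a1 were at 88.0 RPKM or above. Eif2b5, Eif1ad, Eif2ak4 and Eif4a3l1 were at 33.6, 19.3, 8.30 and 0.0140 RPKM. Annotated starts can lie some bases from those used in these cells, so both shares are limited by the annotation.

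Pseudogenes with an Eif or Eef name took few of the reads. The 13 pseudogene rows whose names start with Eif or Eef and a digit held 411, 590 and 536 counts. Eif2s3x-ps1, named after a gene that the rule left out, is among them. Eif5al3-ps had 253, 339 and 342 counts, Eif4a-ps4 57, 152 and 131, and Eef2-ps2 49, 47 and 23. Eif4a-ps4 was highest in tumour 2, as was Eif4a1, whose windows it shares. Genes with other names can share windows too, and their reads are not in these sums. The 12 genes with at least 5% of the Eef1a1 windows each, Gm13456 among them, held 776, 637 and 824 counts. For Eif3j1 the 3 such genes, Eif3j2 among them, held 646, 1133 and 1580 counts.

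Other genes of the pathway were described by a list of 34. All had a mean of at least 1 CPM and 31 reached 10 CPM in each tumour, against 58.8% and 40.6% of all protein-coding genes. Between tumours 8 differed by 1 or more (log2), and the list's median SD was 0.34. The shares of genes with such a range are 41.3% over all genes and 29.3% over protein-coding genes whose mean reached 10 CPM. Over protein-coding genes at 10 CPM or more in every tumour, nearest to the list in level, the share is 23%. The list's count is below the first share and near the last. Per length the list's median was 14.5 RPKM, against 31.0 RPKM for the members. Pabpc1, the polyA-binding protein that meets eIF4G, was the highest at 389 ± 31.0 RPKM, followed by Mknk2, a kinase of eIF4E, at 121 ± 7.78 RPKM and Etf1, the release factor, at 104 ± 43.3 RPKM. The largest ranges were those of Hbs1l, a ribosome rescue factor (149, 110 and 60.2 CPM), Dohh, which completes the hypusine of eIF5A (21.5, 21.8 and 9.07 CPM), and Mtor (124, 221 and 93.4 CPM). Of the 34 listed genes, 11, 14 and 9 were highest in tumours 1, 2 and 3, with Mtor among the 14 and Rheb among the 11. The shares of all genes with a mean of at least 1 CPM are 33.6%, 31.1% and 35.3%.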

How the data were processed

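Gene counts, unnormalised, are what the authors deposited for 3 libraries. The submitters' processing notes name FastQC, STAR 2.5.2b for alignment to mm10, and featureCounts 1.6.0. Neither the annotation release nor the strand setting nor the handling of reads with several alignments is stated in the sources used here. If strand was ignored, reads of overlapping or antisense genes stay mixed.

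Accession order gave the tumours their numbers, as names only. No contrast was fitted. Counts were scaled with TMM factors (0.969, 0.990 and 1.04) from edgeR 4.0.16 (R 4.3.3) after filterByExpr, and log2 CPM used a prior count of 2. Of 37646 gene identifiers, 37536 matched GENCODE M21 without their version, which gave coordinates and exon lengths. A window of 50 bases was called shared when it occurred exactly, on either strand, in a GENCODE transcript of another gene. Levels per unshared window divide all counts of a gene by its unshared windows, as if no read of a shared window had been counted. For windows and coding sequences, 1 transcript per gene with the longest complete coding sequence was used. Paralog coding sequences were aligned globally with Biopython 1.88. Tables, intervals and plots were made in Python 3.11.15 with pandas 2.3.3, SciPy 1.17.1, matplotlib 3.10.9 and NumPy 2.4.6. DESeq2 1.42.0 gave size factors for an alternative. The range call was tested on simulated counts.

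Members, lists and rules were chosen with earlier results of these data known. Named were the 10 members of highest RPKM, the 10 of largest range, all paralog sets, members under a mean of 1 CPM, and, of the pathway list, the 3 highest and the 3 of largest range. Other members were given by role after their values were seen. Eif4e1b, which a paralog set names, was not analysed here. Alternatives covered normalisation, filters, prior count, the length used per gene, and each tumour left out in turn.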

Additional observations from a re-analysis of the deposited data

How the results depend on the processing

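No paired analysis was possible because there is only 1 group. Scaling moved 1 number by over 1.5 times: the members highest in tumour 3 were 17 with library totals against 11. The share of all genes highest there under library totals is not given. Leaving out 1 tumour gave a median SD of 0.21 to 0.27 (0.29 with all). It left 4 to 6 members with a range of 1 or more (10 with all), though a gene's range cannot grow by such an omission. Length decides most ratios between genes. Elongation over initiation, with Eif5a in the initiation sum, was 1.04 by RPKM and 1.06 per unshared window. It was 0.794 by CPM and 0.727 by the length of 1 transcript. In percent, with CPM in place of RPKM, Eif4a3 over Eif4a2 was 51.1, Eif4e2 over Eif4e 256, Eif4e3 over Eif4e 15.8, Eif4g2 over Eif4g1 191, Eif4g3 over Eif4g1 56.2, Eif4ebp3 over Eif4ebp2 0.751, Eif3j2 over Eif3j1 4.47, Eif2ak4 over Eif2ak1 58.3, Eif4ebp1 over Eif4ebp2 7.59 (20.0 by RPKM), Eif1b over Eif1 13.8 (25.7) and Eif5a2 over Eif5a 0.261 (0.123). By the length of 1 transcript, Eif4a1 over Eif4a2 was 42.5, Eif4a3 over Eif4a2 41.5, Eif4e2 over Eif4e 445, Eif4g3 over Eif4g1 59.9, Eif2ak4 over Eif2ak1 48.4 and Eif5a2 over Eif5a 0.0746. Per unshared window, Eif4a3 over Eif4a2 was 40.2, Eif4e2 over Eif4e 416, Eif4g3 over Eif4g1 59.9, Eif4ebp3 over Eif4ebp2 17.96, Eif3j2 over Eif3j1 57.0, Eif1b over Eif1 12.3 and Eif2ak2 over Eif2ak1 33.7. Transcript length and unshared windows were chosen after seeing the data. The transcripts used for Eif4a2 and Eif4g3 hold almost only coding bases, which raises these genes by both settings. Each setting changes the denominator by construction. At these depths the members with under 20 counts have wide counting intervals.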
